A study of Homo sapiens with 6 samples.

Results

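The aldo-keto reductase genes described here are AKR1C1, AKR1C2, AKR1C3, AKR1C6P, AKR1B1 and AKR1B10, 6 of the 23459 genes in the count table. They were selected by name, after their levels in siYAP/TAZ and siCtrl libraries of these data had been seen, so their difference between the groups is described and not tested. The data are 3′ mRNA-Seq counts from MCF10A, a non-transformed epithelial line from human breast, in 3 siCtrl libraries (non-targeting control siRNA) and 3 siYAP/TAZ libraries (siRNA against YAP and TAZ), all described in the labels as WT. All cells received siRNA at 20 nM with a lipid reagent, and all were grown in medium with horse serum, insulin, hydrocortisone, cholera toxin and EGF. The study asked how YAP and TAZ, the transcriptional co-activators of the Hippo pathway, act together with the AP-1 factor JUN. The labels give no culture or passage for the libraries and no clone for the line, so the spread between replicates may be partly technical.

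Aldo-keto reductases are cytosolic enzymes that use NADPH to reduce aldehydes and ketones, among them steroid hormones, prostaglandins, retinal, sugars and products of lipid peroxidation. The AKR1C genes lie side by side and encode hydroxysteroid dehydrogenases that set the local level of progestins, androgens and estrogens in tissues such as breast and prostate. The AKR1B genes encode aldose reductase and its close relative. Several genes of both groups are known targets of the oxidative stress factor NRF2.

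The labels conflict for 2 libraries. Under the description field, which matches the columns of the count table and was used here, siCtrl replicate 2 has a title and genotype that name siYAP/TAZ, and siYAP/TAZ replicate 2 has a title and genotype that name the control. Both targeted genes followed the description: YAP1 lay between 188.7 and 210.3 CPM (each gene's count relative to the TMM-scaled total of its library) in siCtrl and between 111.8 and 118 CPM in siYAP/TAZ, and WWTR1, which encodes TAZ, between 101.8 and 108.8 CPM and between 59.8 and 70.5 CPM. On the first principal component (49% of the variance) siCtrl replicate 2 lay at 6.98, apart from the other siCtrl libraries at -40.7 and -33.3 and next to the siYAP/TAZ libraries at 9.18 to 32.2. The fold changes of the members that passed the filter on low counts and the calls of other genes are therefore also given without these 2 libraries. Library totals ran from 3175149 to 4317286 counts. All 8 mammary epithelial markers (EPCAM, CDH1, KRT5, KRT14, KRT17, TP63, KRT8, KRT18) were in the table, with summed levels of 1391 to 1786 CPM in siCtrl and 1208 to 1377 CPM in siYAP/TAZ, which did not overlap. KRT5 alone made up 826.3 to 955.7 CPM and 624.2 to 714.3 CPM of these sums. Of the 8 markers, 3 had a log2 fold change above 0 (TP63, CDH1 and KRT8) and 5 below, and 0 were called in edgeR. The summed levels of 6 fibroblast markers were 157.6 to 173.4 CPM and 157.5 to 183.8 CPM, of which PDGFRA alone made up 154 to 182.8 CPM in the 6 libraries, with COL1A2 and COL3A1 at 0 counts and COL1A1, PDGFRB and LUM at no more than 3.26 CPM. Hepatocyte markers summed to at most 10.49 CPM, with TTR at 0. The part of these levels in the results was not tested.

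The AKR1C genes stand next to each other on chromosome 10, and the sequences before their start sites are shown because the copies resemble each other there. A link between these sequences and the counts was not tested. In GRCh37, AKR1C1 (Entrez 1645) spans chr10:5005445-5025475 on the plus strand, AKR1C2 (Entrez 1646) chr10:5029967-5060223 on the minus strand, AKR1C3 (Entrez 8644) chr10:5077546-5149878 on the plus strand and the pseudogene AKR1C6P (Entrez 389932) chr10:4914093-4934167 on the minus strand. AKR1B1 (Entrez 231) spans chr7:134127108-134144036 on the minus strand and AKR1B10 (Entrez 57016) chr7:134212319-134226164 on the plus strand. No other gene of the count table overlapped any of the 6. The RefSeq promoter sequences (GRCh38.p14, 250 bases up to the start site, read 5′ to 3′ on the gene's strand) are AKR1C1 at chr10:4963165-4963414 on the plus strand, AKR1C2 at chr10:5003858-5004107 on the minus strand and AKR1C3 at chr10:5048531-5048780 and chr10:5094164-5094413 on the plus strand, its start sites 1 and 2. Capitals mark the bases that differ from AKR1C1, or have no partner there, in a global alignment.
AKR1C1: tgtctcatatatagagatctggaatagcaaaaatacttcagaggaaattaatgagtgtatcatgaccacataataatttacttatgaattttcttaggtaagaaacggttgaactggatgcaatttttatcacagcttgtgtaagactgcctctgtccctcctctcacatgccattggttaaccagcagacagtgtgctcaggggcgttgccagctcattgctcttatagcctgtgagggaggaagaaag
AKR1C2: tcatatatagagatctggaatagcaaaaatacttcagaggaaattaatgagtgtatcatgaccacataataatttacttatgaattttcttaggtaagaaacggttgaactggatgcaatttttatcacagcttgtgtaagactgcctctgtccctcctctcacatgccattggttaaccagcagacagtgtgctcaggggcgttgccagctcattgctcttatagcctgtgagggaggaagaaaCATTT
AKR1C3 start site 1: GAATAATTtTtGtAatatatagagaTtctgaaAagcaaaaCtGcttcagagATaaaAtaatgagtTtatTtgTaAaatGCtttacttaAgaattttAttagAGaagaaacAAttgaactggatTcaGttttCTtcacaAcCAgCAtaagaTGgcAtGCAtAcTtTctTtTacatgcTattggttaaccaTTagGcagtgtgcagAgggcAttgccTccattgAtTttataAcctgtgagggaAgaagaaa
AKR1C3 start site 2: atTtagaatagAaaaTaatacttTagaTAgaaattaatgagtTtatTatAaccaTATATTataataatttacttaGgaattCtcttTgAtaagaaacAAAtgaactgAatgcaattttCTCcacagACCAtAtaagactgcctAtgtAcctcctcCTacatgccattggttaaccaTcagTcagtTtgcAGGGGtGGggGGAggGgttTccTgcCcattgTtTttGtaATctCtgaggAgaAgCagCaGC

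Before the start site, AKR1C1 and AKR1C2 were almost the same sequence, with 245 identical bases in 254 aligned columns (96.46%). The identical bases formed an unbroken stretch, and the columns that differed lay at the ends of the printed sequences. AKR1C3 was 72.41% identical to AKR1C1 at start site 1 and 69.92% at start site 2. The AKR1B1 promoters at its 2 listed start sites differed in base composition from these, with 68% and 50.8% G and C against 40.8% for AKR1C1, 40% for AKR1C2, and 32% and 35.6% for AKR1C3. The letters TGACNNNGC (core of the antioxidant response element, bound by NRF2), TGANTCA (AP-1) and GGAATG (TEAD, the DNA-binding partner of YAP and TAZ) were searched on both strands in windows that also hold the first 50 bases after the start site. Across all 35116 promoters of the same length, 13.3%, 7.71% and 14% held these letters. In the 6 windows of AKR1C1, AKR1C2, AKR1C3 and AKR1B1 the only match was GGAATG on the gene's strand in AKR1C3, 28 bases after start site 2 and outside the stretch printed above, and it overlapped no match of the other motifs. The absence of a match says only that these letters are not in these windows.

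How far the copies can be told apart by a read bears on every value below. The coding sequences of AKR1C1 and AKR1C2 shared 950 of 969 bases (98.04%), AKR1C1 and AKR1C3 91.66%, and AKR1C2 and AKR1C3 91.25%. AKR1B1 and AKR1B10 shared 76.45%, and AKR1B10 was closer to AKR1B15 (86.53%). The AKR1C6P transcript matched the coding AKR1C transcripts at no more than 75.16% over its best stretch. Windows of 75 bases were then compared, over the last 500 bases of each transcript cut 200 bases after the stop codon, with the transcripts of the other aldo-keto reductase genes. An exact copy elsewhere existed for 62.7% of such windows of AKR1C1, mostly in AKR1C2, and for 78.2% of those of AKR1C2, mostly in AKR1C1. The share was 22.8% for AKR1C3 (most often in AKR1C2), 3.52% for AKR1B10 (mostly in AKR1B15) and 0% for AKR1B1. It was 0% at the annotated end of AKR1C6P. At the annotated transcript ends, which lie farther from the stop codon for the first pair, the share was 0% for AKR1C1 and 40.8% for AKR1C2. The counts of AKR1C1 and AKR1C2 may thus hold reads of each other, and those of AKR1C3 some reads of other AKR1C genes. The counts of AKR1B1 and AKR1C6P have no exact 75-base source among the other family members. How reads with several matches were treated, and the read length of these libraries, are not given in the sources used here.

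**Figure D1:**
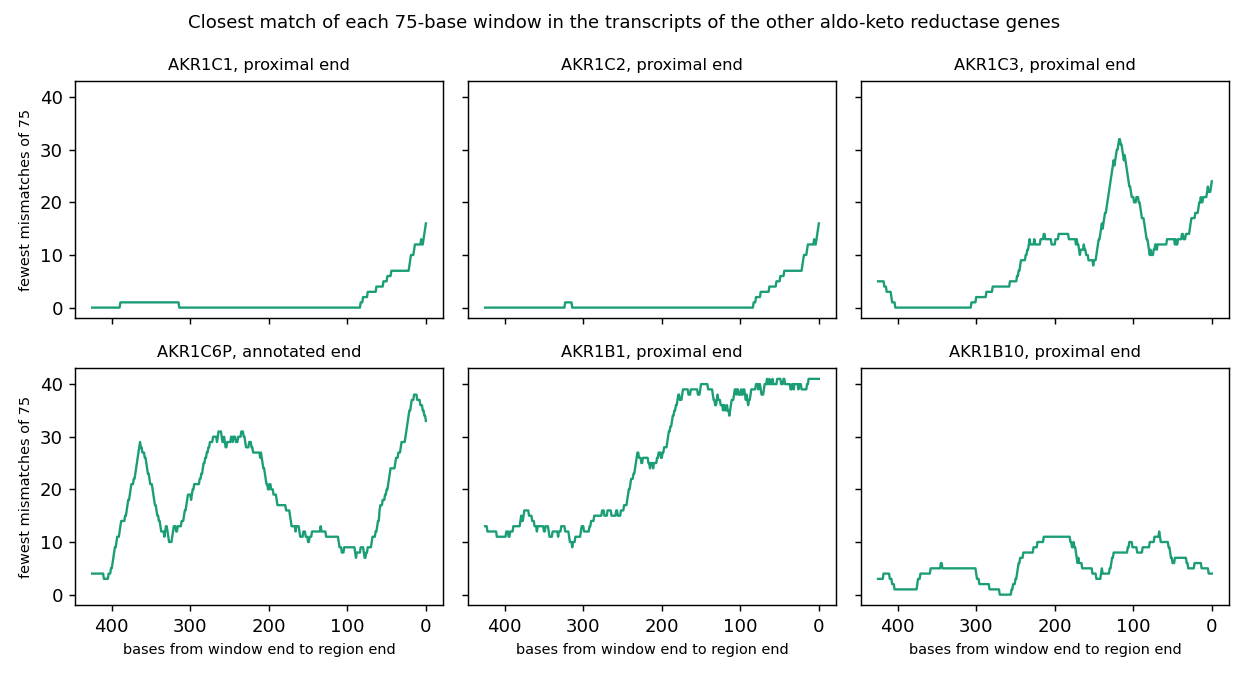
Fewest mismatches of each 75-base window to the closest transcript of another aldo-keto reductase gene (y axis), against the distance in bases from the window's end to the end of the region, with 0 for the last window (x axis). The proximal end is the transcript cut 200 bases after the stop codon; windows of AKR1C1 and AKR1C2 stayed at 0 or 1 mismatch over most of the region and those of AKR1B1 did not reach 0.

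AKR1C3, which makes testosterone from androstenedione and prostaglandin F from prostaglandin D, had the most counts of the 6 genes and differed between the groups about as much as AKR1C1 and AKR1C2. It had 332.9, 570.9 and 182.9 CPM under siCtrl, in the order of replicates 1, 2 and 3, against 2676, 931.8 and 2071 CPM under siYAP/TAZ. The groups did not overlap, with siCtrl replicate 2 the highest control and siYAP/TAZ replicate 2 the lowest depleted library. The means were 362 ± 196 and 1893 ± 886 CPM (SD, n = 3), a ratio of 5.23 and a fitted log2 fold change of 2.39 (SE 0.46). In rank of counts among all genes of a library, it moved from 375, 181 and 940 in siCtrl to 11, 79 and 22 in siYAP/TAZ. In bulk RNA, a larger number of cells with the transcript and more transcript in each cell cannot be told apart.

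AKR1C2, which inactivates dihydrotestosterone, had 184.1, 283.3 and 98.3 CPM under siCtrl against 1531, 427.7 and 1166 CPM under siYAP/TAZ. The lowest siYAP/TAZ value, again in replicate 2, was 1.51 times the highest siCtrl value, again in replicate 2. The means were 188.5 ± 92.6 and 1042 ± 562 CPM (SD, n = 3), a ratio of 5.53, with a log2 fold change of 2.47 (SE 0.48).

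AKR1C1, which inactivates progesterone, had 92.5, 146 and 45 CPM under siCtrl against 764.5, 342.8 and 642.9 CPM under siYAP/TAZ. The order of the libraries within each group was the same as for AKR1C2 and AKR1C3, and the groups did not overlap. The means were 94.5 ± 50.5 and 583 ± 217 CPM (SD, n = 3), a ratio of 6.18, with a log2 fold change of 2.63 (SE 0.42). The highest control library had about 3 times the level of the lowest for each of the coding AKR1C genes. With 1 library left out, the log2 fold change ran from 2.29 to 3.09 for AKR1C1, 2.08 to 2.89 for AKR1C2 and 2.05 to 2.88 for AKR1C3.

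AKR1C6P, annotated as an unprocessed pseudogene with no known protein, was at the limit of detection in the controls. It had 3, 1 and 2 counts under siCtrl against 47, 54 and 81 counts under siYAP/TAZ, or 0.862, 0.309 and 0.503 CPM against 10.65, 17.9 and 22 CPM. The groups did not overlap, and no siCtrl library exceeded 3 counts, the limit that a count of 0 allows. The depth-corrected ratio of the summed counts, 182 against 6, was 29.2 with a 95% counting interval of 13.2 to 80.6, and this interval covers counting error only. The fitted log2 fold change was 4.82 (SE 0.48) in edgeR and 4.9 in DESeq2, and it rests on 6 siCtrl counts in all. The edgeR value includes a small prior count, the size of which was not varied.

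AKR1B1, aldose reductase, which turns glucose into sorbitol, differed far less between the groups than the AKR1C genes. It had 192.4, 149.7 and 150.8 CPM under siCtrl against 368, 235.4 and 263 CPM under siYAP/TAZ. The groups did not overlap, and siCtrl replicate 2, the highest control for AKR1C1, AKR1C2 and AKR1C3, was the lowest here. The means were 164 ± 24.4 and 289 ± 70.02 CPM (SD, n = 3), a ratio of 1.76, with a log2 fold change of 0.82 (SE 0.19).

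AKR1B10, which reduces retinal and aliphatic aldehydes, was near the floor of the measurement in most libraries. It had 6, 18 and 1 counts under siCtrl against 49, 8 and 8 counts under siYAP/TAZ, or 1.72, 5.56 and 0.251 CPM against 11.1, 2.64 and 2.18 CPM. The groups overlapped, since siCtrl replicate 2 lay above siYAP/TAZ replicates 2 and 3, and the higher siYAP/TAZ mean came from replicate 1. The gene did not pass the filter on low counts, and without the filter its log2 fold change was 1.19.

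**Figure D2:**
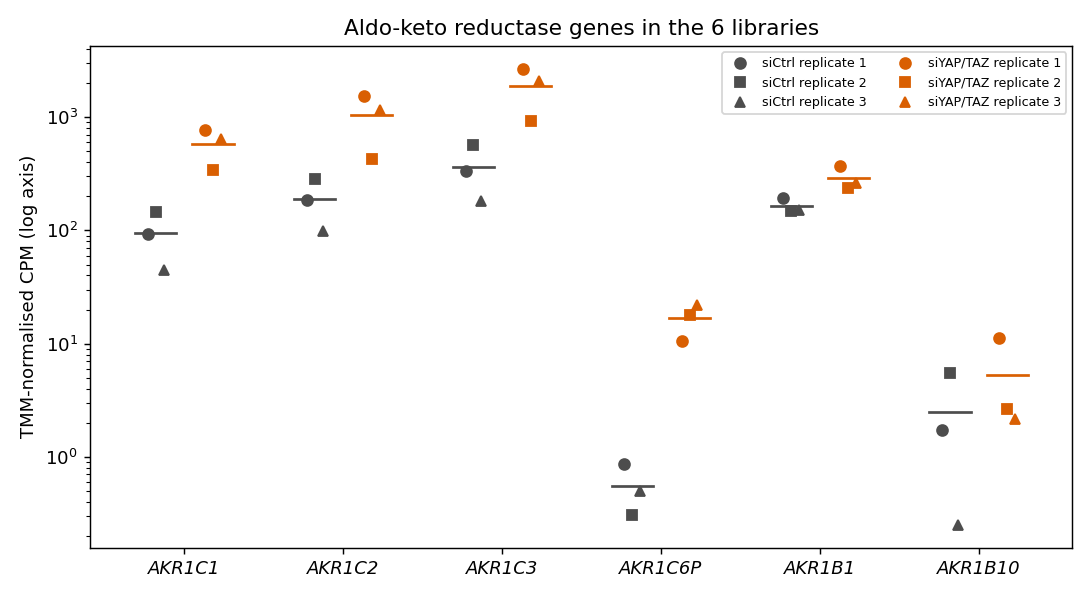
TMM-normalised CPM (y axis, log scale) of the 6 genes in each of the 3 siCtrl and 3 siYAP/TAZ libraries. Points are libraries, with symbols for the replicate number, and lines are group means; siCtrl replicate 2 and siYAP/TAZ replicate 2 come closest to each other for AKR1C1, AKR1C2 and AKR1C3, and the groups overlap for AKR1B10.

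Of the 6 genes, 5 passed the filter on low counts, and 4 of these (AKR1C1, AKR1C2, AKR1C3 and AKR1C6P) were called higher at the threshold of 0.05 on edgeR's adjusted p (quasi-likelihood test with Benjamini-Hochberg adjustment), where 0.743% of the 12510 genes tested were called higher and 1.96% in either direction. With the replicate number as a block all 5 were called, where 10.1% of the genes tested were. The groups did not overlap, with siYAP/TAZ higher, for the same 5 genes and for 11% of the genes tested. Because the genes were chosen on this contrast, these counts and the calls that follow are no evidence about them. The call also rested on single libraries: with replicate 1 or 3 of siCtrl or replicate 3 of siYAP/TAZ left out, only AKR1C6P was called, without siYAP/TAZ replicate 1 only AKR1C1 and AKR1C6P, and with the groups of the titles 0 of the 5. With robust dispersion estimation only AKR1C6P was called. Without both libraries of conflicting labels all 5 were, where 1183 of the 12729 genes tested were called. AKR1C6P had 3, 1 and 2 counts under siCtrl and passed the filter only through its siYAP/TAZ counts.

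The size of the difference varied with the replicate number for the AKR1C coding genes. The ratio of siYAP/TAZ to siCtrl within a number was 8.04, 1.63 and 11.3 for AKR1C3 in replicates 1, 2 and 3. It was 8.32, 1.51 and 11.9 for AKR1C2. For AKR1C1 it was 8.27, 2.35 and 14.3. In all of these genes replicate 2, which is made of the 2 libraries with conflicting labels, gave the lowest ratio. AKR1C6P had its highest ratio in replicate 2, with 12.4, 57.8 and 43.8, each over 1 to 3 siCtrl counts. AKR1B1 was even across the numbers, with 1.91, 1.57 and 1.74. AKR1B10 was lower in siYAP/TAZ in replicate 2 at 0.476 and higher in replicates 1 and 3 at 6.44 and 8.66. Without the 2 libraries the log2 fold changes were 3.37 for AKR1C1, 3.26 for AKR1C2, 3.21 for AKR1C3, 4.53 for AKR1C6P and 0.88 for AKR1B1. AKR1B10 did not pass the filter there either, with 6 and 1 counts under siCtrl against 49 and 8 under siYAP/TAZ.

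**Figure D3:**
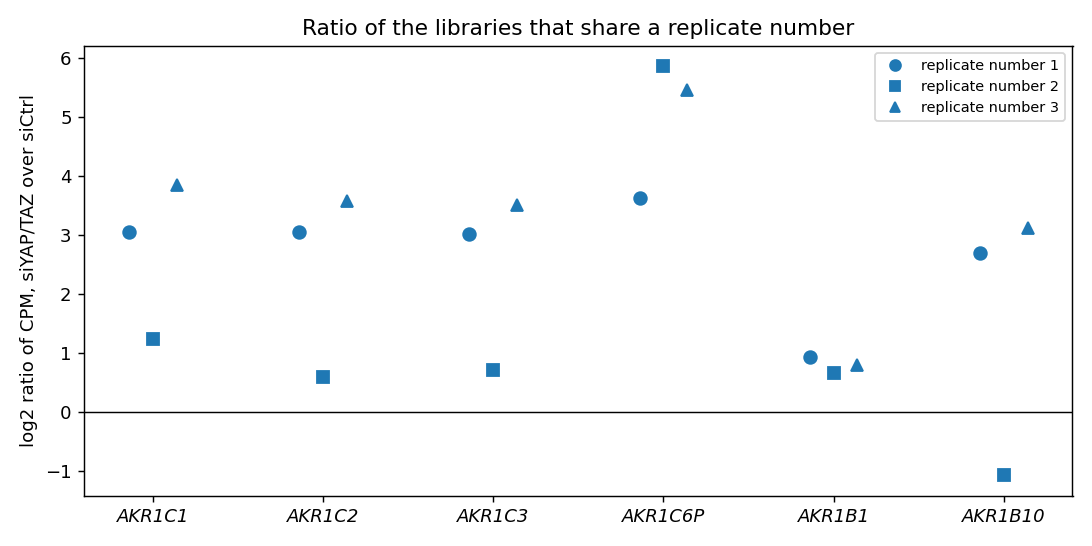
Log2 ratio of CPM, siYAP/TAZ over siCtrl, between the libraries with the same replicate number (y axis) for each gene (x axis), 1 symbol per replicate number and a line at 0. Replicate number 2 is lowest for AKR1C1, AKR1C2 and AKR1C3, highest for AKR1C6P and below 0 for AKR1B10.

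The division of the AKR1C counts among the copies comes from the same contrast and is given as a description. These counts come from the 3′ end and are not divided by length. The summed counts of AKR1C1, AKR1C2, AKR1C3 and AKR1C6P were 2125, 3242 and 1300 under siCtrl against 21986, 5204 and 14350 under siYAP/TAZ, and the log2 fold change of the sum was 2.45 (SE 0.46). AKR1C3 held 53.1% to 57.1% of the sum in the 6 libraries. AKR1C2 held 28.3% to 30.7% in every library but siYAP/TAZ replicate 2, where it held 24.9% (exact 95% binomial interval 23.7% to 26.1%). AKR1C1 held 13.8% to 16.5% in those 5 libraries and 19.9% (18.8% to 21%) in siYAP/TAZ replicate 2. The ratio of AKR1C2 to AKR1C1 counts was accordingly 1.25 there and 1.81 to 2.18 elsewhere, while AKR1C3 to AKR1C2 stayed between 1.75 and 2.18. AKR1C3 had the most counts, AKR1C2 fewer and AKR1C1 the fewest of the coding genes in each library. For AKR1C1 and AKR1C2, and to a lesser degree for AKR1C3, this division depends on how shared reads were assigned, which was not tested.

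The share of AKR1C6P in the cluster is likewise a description. It held 1.41, 0.309 and 1.54 counts per 1000 AKR1C counts under siCtrl against 2.14, 10.5 and 5.68 under siYAP/TAZ. The exact intervals of its share, 0.157% to 0.284% in siYAP/TAZ replicate 1, 0.449% to 0.701% in replicate 3 and 0.78% to 1.35% in replicate 2, did not overlap, but they cover counting error only and not the spread between samples. Among the siYAP/TAZ libraries, replicate 2 had the lowest AKR1C sum and the highest share of the pseudogene. Of the AKR1B counts, AKR1B1 held 96.4% to 99.8%, and the sum of both genes had a log2 fold change of 0.82 (SE 0.19).

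**Figure D4:**
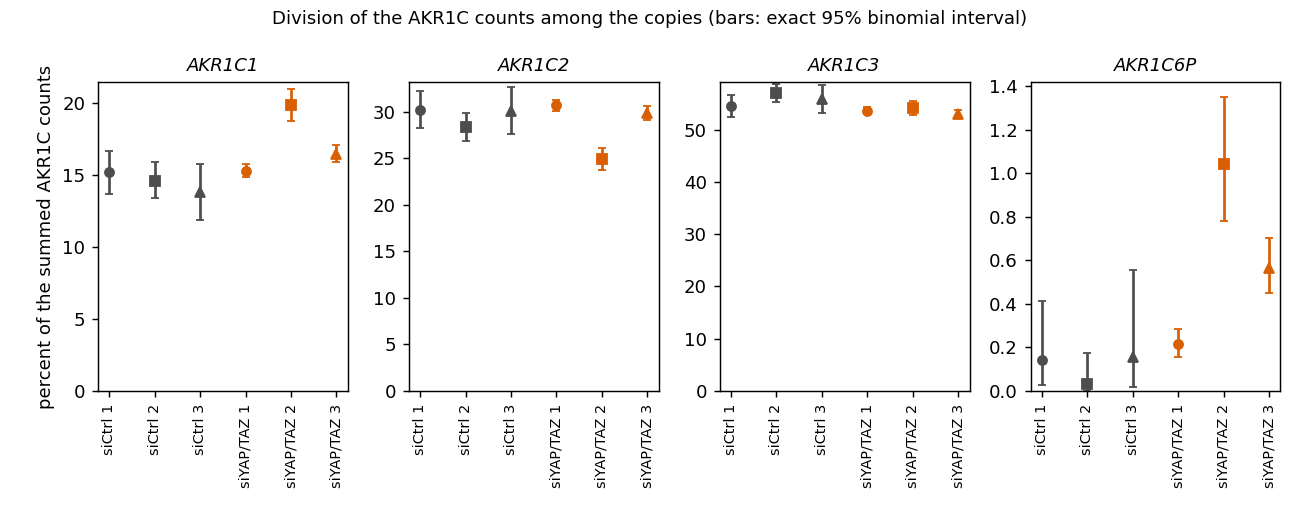
Percent of the summed AKR1C counts (y axis, from 0 in each panel, with its own scale) held by AKR1C1, AKR1C2, AKR1C3 and AKR1C6P in each library (x axis), with exact 95% binomial intervals. In siYAP/TAZ replicate 2 AKR1C1 is at 19.9%, above the other libraries, AKR1C2 at 24.9%, below them, and AKR1C6P at 1.04%, its highest.

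Across the 6 libraries, log2 CPM of the summed AKR1C counts correlated with AKR1C1, AKR1C2 and AKR1C3 at r of 0.995, 0.997 and 1.000, values that follow in part because these genes make up the sum. For AKR1C6P r was 0.834, for AKR1B1 0.887 and for AKR1B10 0.725. With the group means removed, r was 0.986, 0.992 and 1.000 for the coding AKR1C genes, -0.381 for AKR1C6P, 0.516 for AKR1B1 and 0.811 for AKR1B10. Among 9784 genes with a mean of at least 10 CPM, those most like the AKR1C sum over all 6 libraries were HADHB (r of 0.984), a subunit of the mitochondrial trifunctional protein of fatty acid oxidation, ZSWIM8 (0.983), RPUSD4 (0.982), SQSTM1 (0.981) and EOLA2-DT (0.981). With the group means removed they were PFN2 (0.997), ANKAR (0.995), RAB14 (0.992), RNF39 (0.991) and UBE2J1 (0.990). These are descriptions over 6 libraries, picked from many genes, and they share library, depth and, in the first case, the contrast itself.

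The remaining aldo-keto reductase genes were read as a list. Of 13 genes, 12 were in the table, 5 passed the filter on low counts and 0 were called in edgeR, with 0 at an unadjusted p under 0.05 and 0 in DESeq2. Their median log2 fold change was 0.24, against -0.000931 for all genes tested, of which 1.96% were called in either direction. AKR1A1, which reduces glucuronate and many aldehydes, had 16.4, 26.2 and 22.6 CPM under siCtrl against 26.3, 26.8 and 23.9 CPM under siYAP/TAZ, and the groups overlapped (log2 fold change 0.24 with an SE of 0.21, and 0.599 as the edgeR adjusted p). KCNAB1, a potassium channel beta subunit of the same fold, had 7.66 ± 2.74 and 12.1 ± 2.98 CPM (SD, n = 3), with an adjusted p of 0.336 in edgeR. AKR1C4, the liver member of the cluster, had 4, 3 and 6 counts under siCtrl against 19, 8 and 15 under siYAP/TAZ, and AKR1B15 had 1, 3 and 0 against 10, 3 and 3. Neither passed the filter with all 6 libraries, and both were named after their values were seen. Without both libraries of conflicting labels AKR1C4 passed the filter, with a log2 fold change of 1.63 and an edgeR adjusted p of 0.0729.

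NRF2, encoded by NFE2L2, and its inhibitor KEAP1 did not pass the test. NFE2L2 had 233.8, 318.5 and 228.9 CPM under siCtrl against 278.8, 272.7 and 315.5 CPM under siYAP/TAZ (log2 fold change 0.15 with an SE of 0.16, and 0.672 as the edgeR adjusted p), and siCtrl replicate 2 was the highest of all. KEAP1 had a log2 fold change of 0.03 with an SE of 0.19, and 0.955 as the edgeR adjusted p. Of 8 NRF2 regulators tested, 1 was called, against 1.96% of all genes tested in either direction. This was SQSTM1, an autophagy receptor that binds KEAP1, and it rose. It had 191.8, 236.4 and 127.9 CPM under siCtrl against 454, 363.6 and 458 CPM under siYAP/TAZ, the groups did not overlap, and the log2 fold change was 1.20 with an SE of 0.22, and 0.0288 as the edgeR adjusted p. The call for SQSTM1 was lost without siCtrl replicate 1 or 3 (adjusted p of 0.0814 and 0.1 in edgeR) and without siYAP/TAZ replicate 1, 2 or 3 (0.0629, 0.0606 and 0.152). Without both libraries of conflicting labels the adjusted p of SQSTM1 was 0.00162 in edgeR, and over all alternatives it ranged from 2.71e-05 to 0.898, the last with the groups of the titles. MAFK, a small MAF partner of NRF2, had the next lowest p of the list at an adjusted 0.669 in edgeR, with a log2 fold change of -0.24.

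Of 28 NRF2 target genes other than the members, 25 were tested and 1 was called higher, against 0.743% of all genes tested. The median log2 fold change of these genes was 0.15, with 18 above 0 and 7 below. The gene was FTH1, the heavy chain of ferritin, at 2284, 3060 and 1621 CPM under siCtrl against 5508, 5983 and 5892 CPM under siYAP/TAZ. The groups did not overlap (log2 fold change 1.32 with an SE of 0.23, and 0.0265 as the edgeR adjusted p), and the gene has many processed copies in the genome that may take up or give reads. Its call was lost without replicate 1 or 3 of siCtrl (adjusted p of 0.0904 and 0.115 in edgeR) and without replicate 2 or 3 of siYAP/TAZ (0.0829 and 0.145), and the adjusted p was 0.00209 without both libraries of conflicting labels and 6.09e-07 to 0.898 over all alternatives. FTL, the ferritin light chain, had 216.9 ± 72 and 356 ± 107.8 CPM (SD, n = 3) with a log2 fold change of 0.72 and an adjusted p of 0.226 in edgeR, which was lowest with the replicate block (0.0261) and highest by title (0.898). With the block, FTH1 and FTL were the 2 genes of the list that passed, against 10.1% of all genes tested. NQO1, a widely used NRF2 target named after its values were seen, had 269, 165.7 and 143.2 CPM under siCtrl against 342.9, 142.1 and 208.9 CPM under siYAP/TAZ, and the groups overlapped (adjusted p of 0.713 in edgeR). Without both libraries of conflicting labels 3 genes of the list passed, all higher. There 1183 of the 12729 genes tested were called, 592 of them higher. Besides FTH1 these were GCLC (log2 fold change 0.785, adjusted p of 0.0276 in edgeR) and EPHX1 (0.814 and 0.0203). Both were named after their values were seen, and NQO1 did not pass there (0.395).

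Other carbonyl-metabolising enzymes were read in the same way. Of 21 genes, of which 2 are also on the NRF2 target list and 2 on the retinoid list, 18 were tested, 0 were called higher and 1 lower. Over all genes tested 1.96% were called in either direction. The median log2 fold change of the list was 0.09. The gene that fell was AOX1, aldehyde oxidase, at 12.4, 13 and 22.4 CPM under siCtrl against 3.4, 1.32 and 1.9 CPM under siYAP/TAZ, and the groups did not overlap (log2 fold change -2.78 with an SE of 0.40, and 0.0138 as the edgeR adjusted p). Its adjusted p in edgeR was 0.0766 with replicate 3 of siCtrl left out, 0.0505 and 0.107 with replicate 2 or 3 of siYAP/TAZ left out, and 0.00522 without both libraries of conflicting labels, with a range of 1.05e-06 to 0.898 over all alternatives. ALDH3A1, an aldehyde dehydrogenase that oxidises aromatic and medium-chain aldehydes, had 17.5, 11.1 and 8.54 CPM under siCtrl against 83.2, 22.5 and 38.9 CPM under siYAP/TAZ. Its groups did not overlap and its log2 fold change was 1.98 with an SE of 0.46, and its adjusted p was 0.0624 in edgeR, 0.00129 with the replicate block, 0.00634 without both libraries of conflicting labels and 0.000283 to 0.898 over all alternatives. With the block 4 genes of the list passed, 2 in each direction, against 10.1% of all genes tested.

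Of 34 genes of steroid and prostaglandin metabolism and response, 21 were tested and 0 were called by edgeR without the block, with an unadjusted p under 0.05 for 5 genes that were higher and 3 that were lower, and 3 called by DESeq2. With the replicate block 7 passed, 5 higher and 2 lower. Over all 12510 genes tested, edgeR called 1.96% without the block and 10.1% with it, and DESeq2 called 592. The median log2 fold change was 0.09. PTGFR, the prostaglandin F receptor, had 2.01, 2.78 and 2.76 CPM under siCtrl against 5.89, 11.6 and 23.7 CPM under siYAP/TAZ. The groups did not overlap, and the log2 fold change of 2.42, with an SE of 0.53, had an adjusted p of 0.0527 in edgeR, 0.00278 with the block, 0.0338 without both libraries of conflicting labels and 0.000656 to 0.898 over all alternatives. PTGS1, a cyclooxygenase, had 2.6 ± 0.525 and 6.26 ± 1.17 CPM (SD, n = 3), with an adjusted p of 0.101 in edgeR, 0.049 with the block and at most 0.941 under the other alternatives.

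Of 20 genes of retinoid metabolism, 13 were tested and 1 was called, lower, against 1.96% of all genes tested in either direction. The median log2 fold change of these genes was 0.01. RARA, a retinoic acid receptor, had 436.8, 418 and 446.5 CPM under siCtrl against 272.7, 212.9 and 236.9 CPM under siYAP/TAZ, and the groups did not overlap (log2 fold change -0.85 with an SE of 0.14, and 0.0179 as the edgeR adjusted p). Its call was lost without replicate 1 or 3 of siCtrl (adjusted p of 0.0567 and 0.115 in edgeR) and without replicate 2 or 3 of siYAP/TAZ (0.0843 and 0.133). Its adjusted p was 0.00862 without both libraries of conflicting labels and 1.9e-05 to 0.912 over all alternatives. CYP26B1, which degrades retinoic acid, had 8.84 ± 0.707 and 15.3 ± 4.16 CPM (SD, n = 3), with an adjusted p of 0.171 in edgeR. With the replicate block 2 genes of the list passed, both lower, against 10.1% of all genes tested in either direction.

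**Figure D5:**
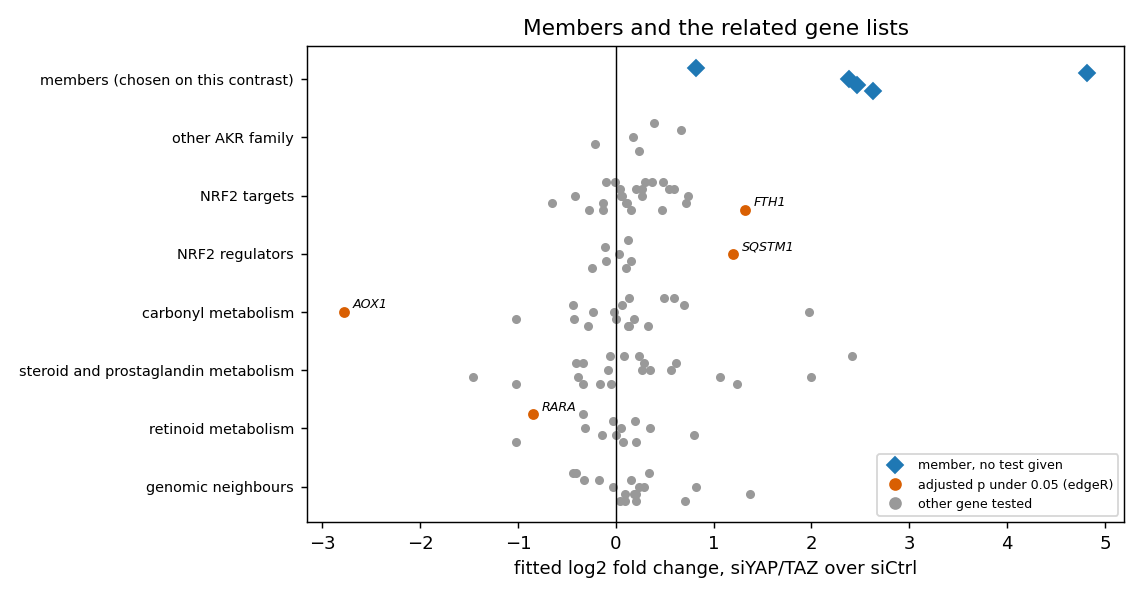
Fitted log2 fold change, siYAP/TAZ over siCtrl (x axis), of the 5 members that were tested and of the tested genes of 7 lists (y axis, offset within a list for display). Orange points passed an adjusted p of 0.05 in edgeR; FTH1 and SQSTM1 lie above 0 and AOX1 and RARA below, and no test is given for the members.

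Genes that start within 1000000 bases of a member on the same chromosome did not pass the test. Of 29 such neighbours on chromosomes 7 and 10, 18 were tested and 0 were called in edgeR, with an unadjusted p under 0.05 for 3 genes that were higher and 0 that were lower and 0 called by DESeq2. Their median log2 fold change was 0.17, and 1.96% of all genes tested were called in either direction. MANCR, a long noncoding RNA on the AKR1C6P side of the cluster, had 1.72, 1.54 and 2.76 CPM under siCtrl against 4.53, 2.31 and 8.98 CPM under siYAP/TAZ, with an adjusted p of 0.222 in edgeR. ASB13 had 5.32 ± 1.83 and 9.38 ± 2.83 CPM (SD, n = 3), with an adjusted p of 0.264 in edgeR. Without both libraries of conflicting labels, the genes picked from the lists by the naming rule below were read again. Those that had not passed the test, other than ALDH3A1 and PTGFR, again did not pass. Their edgeR adjusted p-values ran from 0.0547 for CYP26B1 to 0.699 for MAFK. Other list genes did pass there, where 592 of the 12729 genes tested were called higher. All of these list genes were higher and were named after their values were seen. These were GCLC, EPHX1, ALDH3A2 (adjusted p of 0.00578 in edgeR), SRD5A1 (0.0283), SRD5A3 (0.0387) and HPGD (0.0347).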

How the data were processed

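Per the labels, 3′ mRNA-Seq libraries were made from RNA of MCF10A cells with a forward-reading 3′ kit, and the authors deposited raw counts per Entrez gene for 6 libraries, with 0 unnamed entries. The submitters' processing notes name cutadapt 4.2, Bowtie2 2.3.5.1 and hg19. The annotation, the use of strand and the handling of reads with several matches are not given in the sources used here. RefSeq symbols matched 23308 of 23459 IDs, with 99.7% of the counts.

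Groups and replicate numbers were taken from the description field. Counts were fitted with edgeR 4.0.16 (R 4.3.3; default low-count filter, TMM scaling, quasi-likelihood test, Benjamini-Hochberg adjustment over 12510 genes, threshold 0.05). Errors are SD over 3 libraries, and intervals cover counting error only. The members and lists were chosen with earlier results of these data known. Genes named were the members, YAP1, WWTR1, NFE2L2, KEAP1, up to 6 called genes of each list or, with fewer than 2, the 2 of lowest p, and the 5 most like the AKR1C sum by either measure. Genes said to have been named after their values were seen fall outside this rule.

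Libraries with the same number deviated together (r of deviations across genes 0.428, 0.355 and 0.129), so the numbers were taken to pair them. The main fit used the group only, so calls and adjusted p-values given without mention of the block leave this pairing out. In edgeR 245 genes were called without the block and 1263 with it. A gene not called in the main fit is therefore not shown to be unchanged, and ALDH3A1 and PTGFR passed only once the block was added or other settings were changed. Alternatives were DESeq2 1.42.0, the test named by the study, RLE scaling, library size alone, other low-count filters, robust dispersion, the replicate block, each library left out, groups by title, both conflicting libraries left out, and summed copies. Scripts were tested on simulated data. Gene coordinates and transcripts are GENCODE 44 lifted to GRCh37, and coding nucleotide identity was used in place of the planned protein identity.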

Additional observations from a re-analysis of the deposited data

How the results depend on the processing

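The number of genes called over the whole table, 245, was 592 by DESeq2, 556 without a low-count filter, 1183 without both libraries of conflicting labels and 0 (464 at an unadjusted p under 0.05) with groups by title. With the replicate block it was 1263. With 1 library left out it ranged from 16 to 1579: 92 and 16 without siCtrl replicates 1 and 3 in turn, 1579 without siCtrl replicate 2, and 71 and 18 without siYAP/TAZ replicates 2 and 3 in turn. NRF2 targets went from 1 to 3 without the conflicting libraries, 0 by title, 2 with the replicate block and 0 to 2 with 1 library left out. NRF2 regulators went from 1 to 0 by title and 0 to 1 with 1 library left out. Carbonyl metabolism went from 1 to 3 by DESeq2, without the filter and without the conflicting libraries, 0 by title and at a mean of at least 50 counts, 4 with the block, and 0 to 5 with 1 library left out. Steroid and prostaglandin metabolism went from 0 to 3 by DESeq2, 2 without the filter, 1 with robust dispersion, 4 without the conflicting libraries, 7 with the block and 0 to 7 with 1 library left out. Retinoid metabolism went from 1 to 0 by title, 2 with the block and 0 to 2 with 1 library left out, and genomic neighbours from 0 to 0 to 1. The cause of these shifts was not tested.

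Among the members, grouping by title gave log2 fold changes of 1.70 for AKR1C1, 0.86 for AKR1C6P and 0.43 for AKR1B1, and leaving out both conflicting libraries gave 3.21 for AKR1C3. AKR1C6P ranged from 4.57 to 5.22 with 1 library left out. With 1 library left out, KEAP1 ranged from -0.13 (siCtrl replicate 3) to 0.16 (siCtrl replicate 2), with -0.04 for siYAP/TAZ replicate 3. It was 0.20 without both conflicting libraries and 0.23 by title, and never passed the threshold. The replicate block turned no direction. Among the members and the genes that the naming rule picked from lists, it changed the call only of AKR1B1, FTL, ALDH3A1, PTGFR and PTGS1. Depth limits AKR1C6P and AKR1B10, where 3 counts are 0.68 to 0.992 CPM.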

Other observations

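Over the last 500 bases of the annotated transcripts, AKR1C4 was 80.97% identical to AKR1C3 and AKR1B15 89.88% identical to AKR1B10. Exact copies of 75-base windows at the AKR1C3 end lay most often in AKR1C2, not AKR1C4. AKR1C4 and AKR1B15 did not pass the filter on low counts with all 6 libraries. AKR1C4 had 1.15, 0.926 and 1.51 CPM under siCtrl against 4.31, 2.64 and 4.08 CPM under siYAP/TAZ, so its groups did not overlap. AKR1B15 had 0.287, 0.926 and 0 CPM against 2.27, 0.992 and 0.816 CPM, and its groups overlapped. Whether these counts are reads of AKR1C3 and AKR1B10 was not tested.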
